A study of Caenorhabditis elegans with 2 samples.

Results

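The translation initiation and elongation factor genes of Caenorhabditis elegans whose names begin with eif-, eef-, ife- or ifg- were examined for binding of HLH-15, a basic helix-loop-helix transcription factor. The Ensembl annotation of WBcel235, the assembly that the UCSC browser calls ce11, holds 37 such genes among 19973 protein-coding genes on the nuclear chromosomes. The rule takes every gene of that name, whatever its signal, and the family was chosen for description with earlier results of these data known. For each gene the strongest peak with its summit within 1 kb of one of the gene's transcript starts was taken from each peak list, and genes with no such peak were kept.

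Binding was measured by chromatin immunoprecipitation followed by sequencing in 2 biological replicates of a single group. Per the labels these were whole late embryos of hermaphrodites of strain OP566, genotype unc-119(tm4063) III; wgIs566, taken 3 h after egg bleaching was used to synchronise them. Both replicates carry the same transgene, which makes HLH-15 with GFP and FLAG joined to its C terminus. The promoter driving it is not stated in the labels, and the tissues of the embryo were not separated, so a peak does not say in which cells the protein was bound. The labels disagree on the antibody, with GFP as its target in the description and hlh-15 in the antibody field. With 1 group there is nothing to contrast, and no p-value is given.

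Translation begins when a small ribosomal subunit carrying initiator tRNA, delivered by eIF2 with GTP, is brought to the capped end of an mRNA. The multi-subunit factor eIF3 holds that assembly together and bridges it to the cap-binding complex, in which eIF4E binds the cap and eIF4G is the scaffold. The exchange factor eIF2B recharges eIF2 with GTP, after initiation the elongation factor eEF1A brings in aminoacyl-tRNAs, and eEF2 moves the ribosome along the message. Helix-loop-helix factors as a class recognise the E-box, CANNTG.

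HLH-15 peaks lay near 25 of the 37 factor genes (67.6%) in the list made from both replicates together (the pooled list, which also holds background), against 35.7% of all protein-coding genes, and the 5 strongest stood at genes for eIF3 subunits. The genes eif-3.B, eif-3.C, eif-3.D, eif-3.E and eif-3.I each had a peak in the IDR list, in which the authors kept peaks that passed a limit on the irreproducible discovery rate, a statistic built on how alike 2 replicates rank the same peaks. None of the other 26 factor genes outside eIF3 did, nor did the remaining 6 eIF3 genes. The highest of the other genes were ife-4, eef-1A.2, eef-2, eif-2Bgamma and eif-1.A. At the other extreme eif-2beta, eif-2Bepsilon, eif-3.F, eif-3.K and ifg-1 had no peak within 1 kb in any list.

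The DNA under 8 summits is printed here to show what letters lie there, whether or not a motif is in them. They are not the 8 strongest sites. The best summits of eif-3.C, eif-3.I, eif-3.E and eef-2, with pooled signals of 110, 71.5, 66.9 and 42.3, are not printed. Each run is read 5′ to 3′ on the strand of its gene in WBcel235 from the NCBI sequence, with the summit as the middle base. Capitals mark E-boxes and the runs CCGCAC and CGCACA, searched on both strands. CCGCAC and CGCACA led an earlier search over these same data, at peaks away from tRNA and snoRNA genes, and are only described here. The printed runs lie at chrIII:8971740-8971890 on the minus strand for eif-3.D, chrII:14795015-14795215 on the plus strand for eif-3.B, chrX:1103504-1103704 on the plus strand for ife-4 and chrX:7823055-7823255 on the plus strand for eef-1A.2. The others lie at chrII:6967777-6967927 on the minus strand for eif-2Bgamma, chrIV:4810477-4810677 on the plus strand for eif-1.A, chrIII:6972056-6972206 on the minus strand for eef-1A.1 and chrII:8442426-8442626 on the plus strand for eif-3.G. In all 8 the summit is intergenic.
eif-3.D: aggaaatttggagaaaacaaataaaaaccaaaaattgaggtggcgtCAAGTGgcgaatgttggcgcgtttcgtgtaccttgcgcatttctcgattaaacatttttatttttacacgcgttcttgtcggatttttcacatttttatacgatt
eif-3.B: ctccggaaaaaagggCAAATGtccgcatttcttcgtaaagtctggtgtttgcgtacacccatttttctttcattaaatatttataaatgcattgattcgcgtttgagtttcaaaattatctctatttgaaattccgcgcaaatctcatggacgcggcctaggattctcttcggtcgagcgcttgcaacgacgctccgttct
ife-4: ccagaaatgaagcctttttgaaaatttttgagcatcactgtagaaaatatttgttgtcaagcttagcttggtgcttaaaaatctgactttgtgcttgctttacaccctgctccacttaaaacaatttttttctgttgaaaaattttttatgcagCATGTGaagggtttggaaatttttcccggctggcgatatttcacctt
eef-1A.2: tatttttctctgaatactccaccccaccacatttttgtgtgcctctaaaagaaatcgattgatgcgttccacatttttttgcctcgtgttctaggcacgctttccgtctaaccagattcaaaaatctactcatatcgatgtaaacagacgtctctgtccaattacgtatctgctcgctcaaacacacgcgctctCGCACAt
eif-2Bgamma: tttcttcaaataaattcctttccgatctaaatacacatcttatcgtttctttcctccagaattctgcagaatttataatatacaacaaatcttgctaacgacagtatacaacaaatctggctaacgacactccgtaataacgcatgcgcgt
eif-1.A: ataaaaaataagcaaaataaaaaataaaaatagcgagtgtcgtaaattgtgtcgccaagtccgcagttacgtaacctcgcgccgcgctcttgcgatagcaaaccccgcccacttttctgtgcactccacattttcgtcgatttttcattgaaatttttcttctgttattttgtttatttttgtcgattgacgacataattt
eef-1A.1: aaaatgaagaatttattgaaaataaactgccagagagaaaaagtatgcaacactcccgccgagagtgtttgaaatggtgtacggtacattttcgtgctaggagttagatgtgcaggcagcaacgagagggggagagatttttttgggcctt
eif-3.G: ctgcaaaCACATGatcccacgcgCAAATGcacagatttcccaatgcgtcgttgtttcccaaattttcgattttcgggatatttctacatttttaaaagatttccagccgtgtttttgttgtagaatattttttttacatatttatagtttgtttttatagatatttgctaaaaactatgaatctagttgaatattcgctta
The CAAGTG of eif-3.D begins 29 bp before its summit and 266 bp upstream of the transcript start. The CAAATG of eif-3.B begins 85 bp before the summit and 374 bp upstream of the start. The eif-3.G run holds CACATG, beginning 93 bp before the summit, and CAAATG, beginning 77 bp before it. The E-box of ife-4, CATGTG, which is CACATG on the other strand, begins 54 bp past the summit. The eef-1A.2 run holds no E-box, and its CGCACA begins 94 bp past the summit. The runs of eif-2Bgamma, eif-1.A and eef-1A.1 hold none of the marked letters. At the other 5 genes these lie at different distances and on both sides of the summit.

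The peak lists differ in size and in the scale of their signal value, the authors' per-peak score, whose scale is not stated. The pooled list holds 17654 peaks with signal from 19.0 to 587, and 8199 of their summits lie within 1 kb of a protein-coding start. The IDR list holds 407 peaks, which are the pooled peaks at or above a signal of 58.9, so that an IDR call near a gene is a call on pooled signal and not a further measurement. The list of replicate 1 has 21250 peaks and that of replicate 2 exactly 30000. Read numbers are not stated and the depth is unknown, so signals were set side by side only within a list, and ranks were used between lists. All lists other than the IDR list include background as input to that step, and a peak of low rank in them is not by itself evidence of binding.

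Among the 37 factor genes 25 (67.6%, Wilson 95% interval 51.5 to 80.4) had a pooled peak within 1 kb, against 35.7% of all protein-coding genes. A peak in both replicate lists was found at 21 (56.8%, 40.9 to 71.3), against 27.6% of all protein-coding genes. One of the 2000 pooled peaks of highest signal lay at 10 (27.0%, 15.4 to 43.0), against 6.87%. An IDR peak lay at 5 (13.5%, 5.91 to 28.0), against 1.78%. Within the family, an IDR peak lay at 5 of 11 eIF3 genes (45.5%, 21.3 to 72.0) and at 0 of 26 other factor genes, with an upper bound of 12.9%. This split follows where the IDR peaks lie, so the intervals do not test it. The eIF3 subunit genes egl-45 and cif-1, named otherwise, are not counted here and had no IDR peak. The 10 genes with one of the 2000 highest pooled peaks were 5 of the 11 eIF3 genes and 5 of the 26 others (19.2%, 8.51 to 37.9), and that second share stands against 6.84% of all other protein-coding genes. These intervals cover counting over genes only.

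Other families of the translation machinery had shares of the same order. Of 81 genes for cytosolic ribosomal proteins, 61 (75.3%) had a pooled peak and 7 (8.64%, 4.25 to 16.8) an IDR peak. Of 31 aminoacyl-tRNA synthetase genes, which charge tRNAs with their amino acids, 21 (67.7%) had a pooled peak and 2 (6.45%, 1.79 to 20.7) an IDR peak. The intervals of both families overlap those of the factor genes, so the shares do not set the factor genes apart from them.

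**Figure D1:**
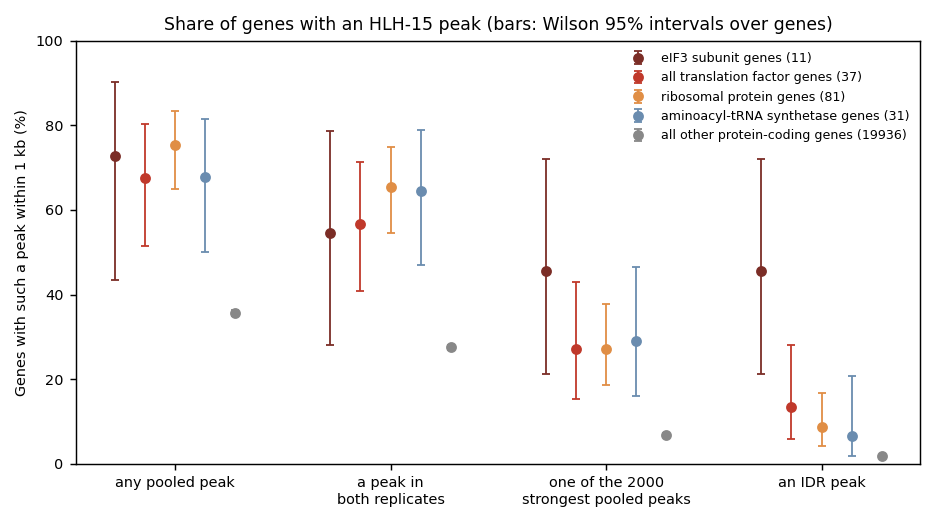
Share of genes with a peak within 1 kb, in percent, for the factor genes, the compared families and all protein-coding genes, with bars for Wilson 95% intervals over genes. The 37 factor genes stand at 67.6% in the pooled list, near the ribosomal protein genes at 75.3%, while all other protein-coding genes stand at 35.7%.

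Where a gene had a pooled peak, its rank can be given as a percent of the list, with low values for strong peaks. The median over the 25 factor genes was 20.8% (quartiles 5.46 and 59.4), against 25.7% over the ribosomal protein genes, 21.7% over the synthetase genes and 38.7% over all other genes. The 8 eIF3 genes with a pooled peak had a median of 1.86%, and the 17 other factor genes one of 39.4%, near the 38.7% of all other genes, though their lower quartile was 6.44%, against 15.7%. The peaks above the IDR limit thus sat at eIF3, and those of next highest rank were spread over other factors. Weak best peaks were found too, with an upper quartile of 59.4% over the 25 factor genes, against 67.7% over all other genes.

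The 11 eif-3 genes encode subunits of eIF3. The gene eif-3.C (WBGene00001226, chromosome I), for a core subunit, had a pooled signal of 110 at rank 90, with the summit 281 bp upstream of its start. Its peak ranked 73 in replicate 1 with signal 79.0 and 236 in replicate 2 with signal 30.4, and both replicate summits lay within 200 bp of the pooled one. It was the highest factor gene in the pooled list and in replicate 1. The gene sys-1 ends within 500 bp in front of it on the same strand.

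The gene eif-3.D (WBGene00001227, chromosome III), whose product binds the mRNA cap in human cells, had a pooled signal of 85.1 at rank 179. The peak spans chrIII:8971577-8972052 with the summit at position 8971815, 237 bp upstream of the eif-3.D start. It ranked 177 in replicate 1 (signal 54.1) and 179 in replicate 2 (signal 33.7), nearly the same place in both. The divergent gene R08D7.4 starts nearer, with the summit 77 bp from its start, so the peak cannot be given to one of the pair by distance. A second pooled peak of signal 44.9 at rank 783 lay 439 bp upstream of eif-3.D, overlapping the first.

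At eif-3.I (WBGene00001232, chromosome I), for a WD-repeat subunit, peaks lay at more than one place. The strongest pooled peak, signal 71.5 at rank 265, had its summit inside an intron of the longer transcript and 555 bp upstream of the start of a shorter one. It ranked 477 in replicate 1 (signal 36.4) and 160 in replicate 2 (signal 35.0). Another pooled peak, signal 54.5 at rank 484, lay 177 bp upstream of the outer start and 2165 bp from the first, just under the lowest IDR signal. The IDR call at eif-3.I therefore depends on counting the inner transcript start.

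The gene eif-3.E (WBGene00001228, chromosome I), for a PCI-domain subunit, had a pooled signal of 66.9 at rank 307, with the summit 286 bp upstream. It ranked 303 in replicate 1 (signal 43.5), where the summit was 166 bp upstream, and 233 in replicate 2 (signal 30.6), where it was again 286 bp upstream. The gene B0511.17 starts 462 bp from the pooled summit. The gene eif-3.B (WBGene00001225, chromosome II), for a core subunit, had a pooled signal of 62.8 at rank 350. Its peak spans chrII:14794877-14795352 with the summit 289 bp upstream, and no other protein-coding start lies within 1 kb of that summit. It ranked 859 in replicate 1 (signal 30.5) and 259 in replicate 2 (signal 29.4), with both replicate summits 286 bp upstream. It is the factor gene just above the IDR limit, and ife-4 with 47.5 is the first factor gene below it.

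Over these 5 genes the ranks ran from 73 to 859 of 21250 in replicate 1 and from 160 to 259 of 30000 in replicate 2. All 5 had both replicate summits within 200 bp of the pooled summit, as did 12 of the 25 factor genes with a pooled peak. The order of the 5 differed between replicates. In replicate 1 eif-3.C was highest and eif-3.B lowest, while in replicate 2 eif-3.I was highest and eif-3.B again lowest.

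**Figure D2:**
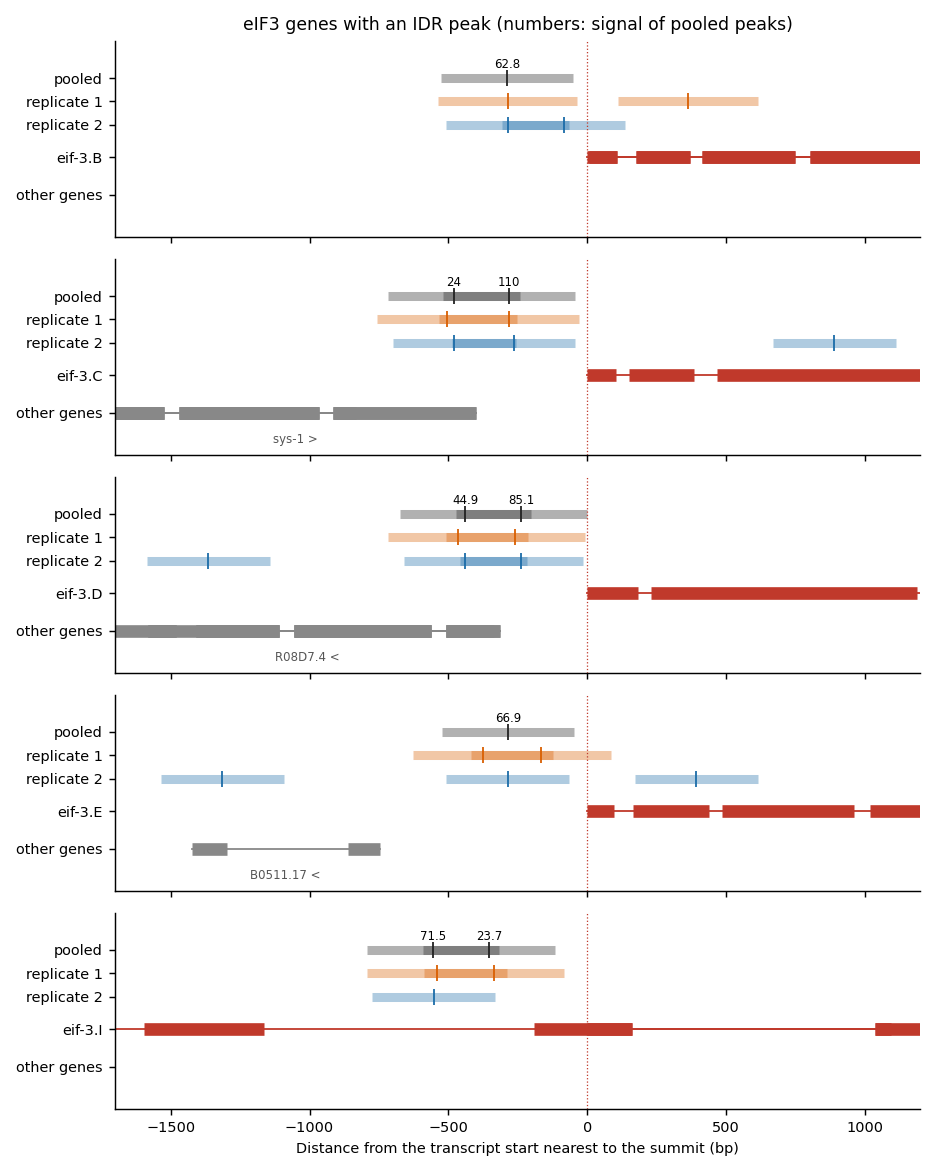
Peaks of the pooled list and of each replicate at the 5 eIF3 genes with an IDR peak, by distance in bp from the transcript start nearest to the summit, with the direction of transcription to the right, ticks for summits and thick boxes for exons. At eif-3.B, eif-3.C, eif-3.D and eif-3.E the strongest pooled summit lies 237 to 289 bp upstream of the start, and at eif-3.I it lies in an intron of the longer transcript, whose own start is outside the range drawn.

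The remaining eIF3 genes were weaker or had no peak. The gene eif-3.G had a pooled signal of 32.0 at rank 2769, with the summit 241 bp upstream, and ranked 3945 in replicate 1 and 1161 in replicate 2. The gene eif-3.J, for a loosely held subunit, had 27.3 at rank 5418 with the summit 713 bp upstream, and eif-3.H had 23.4 at rank 9498 with the summit 288 bp upstream. Neither had a peak in replicate 2, and C41D11.3 starts 82 bp from the eif-3.H summit, nearer than eif-3.H does. The gene eif-3.L was found only in replicate 2, at rank 7250, and eif-3.F and eif-3.K were found in no list. The subunit genes of one complex thus ranged from rank 90 to no peak. Of the eIF3 subunits named otherwise, egl-45 (eIF3A) ranked 19384 in replicate 1 and 25399 in replicate 2, and cif-1 (eIF3M) ranked 21143 in replicate 1, both with no pooled peak. These 2 were looked up after the values of the other subunits had been seen.

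**Figure D3:**
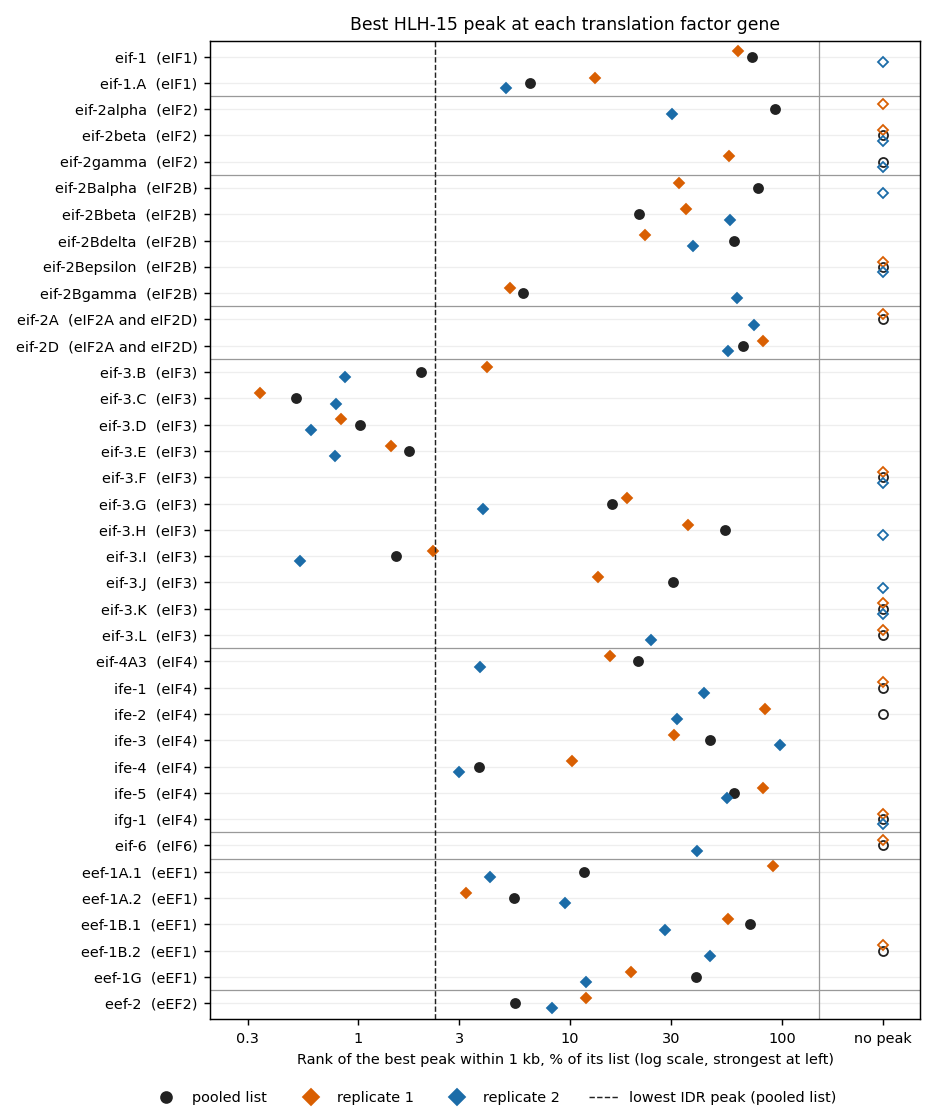
Rank of the best peak within 1 kb of each factor gene as a percent of its list, on a log scale with the strongest at left, for the pooled list and each replicate, with hollow markers at right where a list has no peak. The 5 eIF3 genes left of the dashed line, the pooled rank of the lowest IDR peak, are followed by ife-4 at rank 656.

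Among the factors that start the scan for the initiation codon, eif-1.A, whose product eIF1A sits in the decoding site of the small subunit, had a pooled signal of 40.2 at rank 1137. It ranked 2784 in replicate 1 and 1490 in replicate 2, and its summit lay 357 bp upstream. The gene eif-1, whose product holds the subunit open until the codon is matched, had 21.3 at rank 12710 and no peak in replicate 2. Of the 3 eIF2 subunits only eif-2alpha had a pooled peak, with signal 19.5 at rank 16294 in a coding exon of the neighbouring gene phb-1. That value is near the floor of the list, 19.0, and eif-2gamma was found only in replicate 1, at rank 11959. Within 1 kb the trimer that carries initiator tRNA therefore had no strong peak at any of its genes. A stronger pooled peak, of 31.9 at rank 2804, lay 1938 bp upstream of eif-2alpha.

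Of the 5 genes for the exchange factor eIF2B, 4 had a pooled peak. The gene eif-2Bgamma was highest with 41.0 at rank 1063, 204 bp upstream, but it ranked 1104 in replicate 1 and 18439 in replicate 2. The gene eif-2Bbeta had 29.9 at rank 3717, with a summit 804 bp upstream in an intron of Y47H9C.8, the most distant of the best pooled summits. Peaks near that summit ranked 14051 in replicate 1, 796 bp upstream, and 28614 in replicate 2, 774 bp upstream. The best peak in each replicate lay elsewhere, at rank 7466, 460 bp upstream, in replicate 1 and rank 17040, 912 bp downstream, in replicate 2. The genes eif-2Bdelta and eif-2Balpha had 22.7 at rank 10482 and 20.8 at rank 13613, and eif-2Balpha had no peak in replicate 2. The strongest eIF2B peak thus rested mainly on replicate 1. The gene eif-2D, for a factor that can deliver initiator tRNA without eIF2, had 22.0 at rank 11531, and eif-2A was found only in replicate 2, at rank 22043.

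Of the 5 ife genes, which encode the cap-binding protein eIF4E, 3 had a pooled peak. The gene ife-4 had 47.5 at rank 656 with the summit 608 bp upstream, and ranked 2169 in replicate 1 and 897 in replicate 2. The gene ife-3 had 24.5 at rank 8054 and ife-5 had 22.6 at rank 10526, the first with a replicate 2 peak near the end of that list, at rank 29296. The genes ife-1, found only in replicate 2 at rank 12829, and ife-2, at rank 17622 in replicate 1 and 9540 in replicate 2, had no pooled peak. The single eIF4G gene, ifg-1, had none in any list. The gene eif-4A3, whose product is part of the exon junction complex laid down at splicing, had 29.98 at rank 3677, but vps-20 starts 90 bp from that summit and eif-4A3 itself 369 bp. The gene eif-6, for a factor that keeps the large subunit from joining early, was found only in replicate 2, at rank 11961.

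Among elongation factors, both genes for eEF1A had a pooled peak. The gene eef-1A.2 had 42.3 at rank 964 with the summit 499 bp upstream and a second, overlapping pooled peak of 37.6 at rank 1449, 237 bp upstream. Its best peak ranked 686 in replicate 1, 217 bp upstream, and 2828 in replicate 2, 539 bp upstream. The gene eef-1A.1 had 34.5 at rank 2060, and rfc-4 starts 122 bp from the summit. Its best peak ranked 19271 in replicate 1, 458 bp upstream, but 1262 in replicate 2, 710 bp upstream. By best peak the replicates therefore placed the 2 eEF1A genes in opposite orders, though these peaks were not at the same sites. The gene eef-2, for the translocase, had 42.3 at rank 969, with the summit 111 bp upstream of it and 154 bp from the start of clsp-1, and ranked 2536 in replicate 1 and 2466 in replicate 2. Of the subunits that recharge eEF1A, eef-1G had 25.5 at rank 6960 inside a coding exon of ctf-4 and eef-1B.1 had 21.4 at rank 12476 inside its own coding sequence. The gene eef-1B.2 was found only in replicate 2, at rank 13657.

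The replicates ranked the factor genes alike only in part. Replicate 1 had a peak at 26 and replicate 2 at 27, with 21 in both, 5 in replicate 1 only, 6 in replicate 2 only and 5 in neither. The rank is that of the best peak in each list, which need not be at the same site. In replicate 2 that summit lay 2475 bp from the pooled one at ife-5 and 607 bp at eef-1G. At eif-2Bbeta it lay 912 bp downstream of the start, where the pooled one lay 804 bp upstream. Both replicate summits lay within 200 bp of the pooled one at 12 of the 25 factor genes with a pooled peak. Spearman's rho of the 2 ranks was 0.67 over the 21 factor genes with a peak in both. Over all 5511 protein-coding genes with a peak in both, those with an IDR peak included, it was 0.36. Over 16 of the factor genes, without the 5 with an IDR peak, it was 0.30. No such value was taken over all genes without an IDR peak. These are descriptions across genes, which share the libraries and are not independent.

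Most factor genes had the summit on the same side of the start, but the distance varied. Over the 17 factor genes outside eIF3, the best pooled summit ran from 804 bp upstream to 189 bp downstream. The best pooled summit was upstream of the nearest of the gene's own starts at 24 of 25 (96.0%), against 52 of 61 ribosomal protein genes (85.2%), 16 of 21 synthetase genes (76.2%) and 59.7% of all other genes with a pooled peak. It was upstream at 25 of 26 factor genes in replicate 1 (96.2%) and at 21 of 27 in replicate 2 (77.8%), against 57.6% and 55.1% of all other genes. In replicate 2 the synthetase genes stood higher, at 18 of 22 (81.8%), and the ribosomal protein genes at 47 of 65 (72.3%), so the order of the families turned with the list. In the pooled list the exception was eef-1B.1, with its summit 189 bp downstream. Of the 8 eIF3 summits 6 lay 200 to 300 bp upstream, against 1 of the 17 of other factor genes, 14 of 61 (23.0%) of ribosomal protein genes and 8.73% of those of all other genes. That band was chosen after the distances had been seen. In replicate 1 it held 5 of 8 eIF3 summits and 2 of 18 of other factor genes, against 7.98% of all other genes. In replicate 2 it held 4 of 7 and 2 of 20, against 6.95%. Of the 6 pooled eIF3 summits in it, those of eif-3.D and eif-3.H lie nearer the start of another gene. Among genes with an IDR peak, the band held 4 of the 5 eIF3 summits, against 3 of 7 (42.9%) of ribosomal protein genes and 65 of 351 (18.5%) of all other genes. Of those 351 summits 302 (86.0%) were upstream, at a median of 238 bp.

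**Figure D4:**
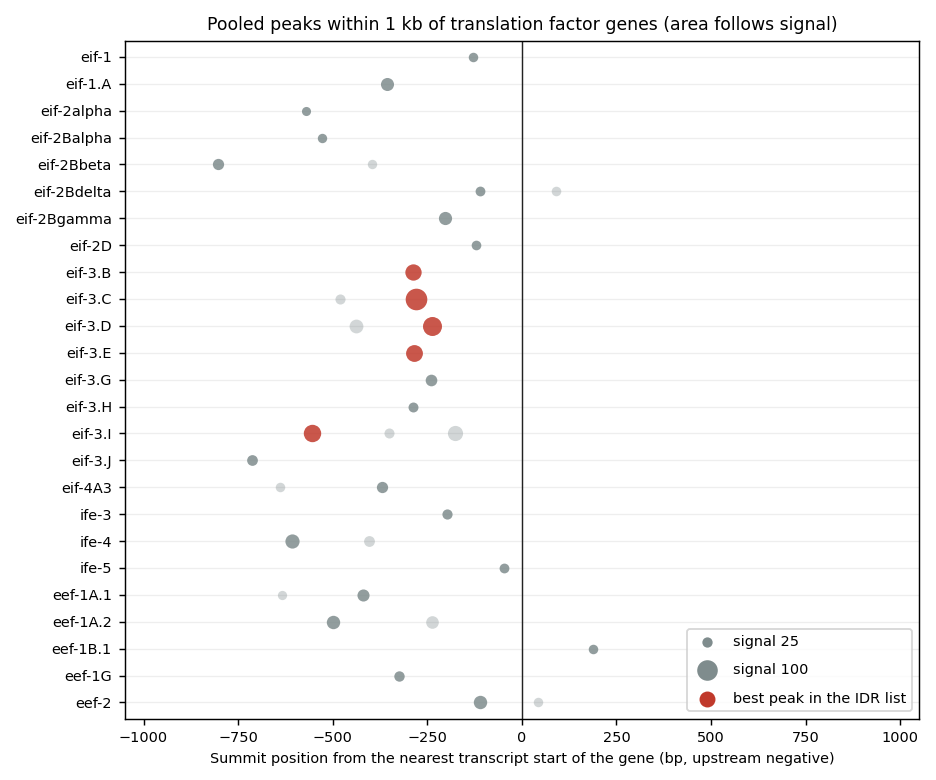
Distance in bp from each factor gene's nearest transcript start to its best pooled summit, negative upstream, 1 row a gene, with circle area following signal, pale circles for further pooled peaks of the same gene and red for a best peak in the IDR list. Every best summit but that of eef-1B.1 lies upstream, and 6 of the 8 eIF3 summits fall between 200 and 300 bp.

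Many of these summits also lie near another gene. Of the 25, 20 are intergenic, 15 have a start of another protein-coding gene within 1 kb, and in 7 that other start is the nearer. No tRNA or snoRNA gene lies within 100 bp of any of them. The same counts were not made over all genes, so these do not set the factor genes apart. The limit of 1 kb leaves out pooled peaks between 1 and 2 kb from 14 factor genes, a count also not made over all genes. At 4 genes that peak is stronger than the one counted, with 36.5 at rank 1623 for ife-5, 33.8 at rank 2228 for eif-3.H, 31.9 at rank 2804 for eif-2alpha and 29.2 at rank 4088 for eif-1. Another 4 genes have a pooled peak there and none inside 1 kb. These are eif-3.K with 27.6 at 1282 bp, eif-2A with 23.9 at 1502 bp, ife-1 with 24.3 at 1965 bp and eif-6 with 39.2 at 1996 bp. The gene just inside is eif-2Bbeta at 804 bp.

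E-boxes were about as frequent under these summits as under others. Within 100 bp of the summit 14 of 25 windows (56.0%) held one, against 52.5% of 6028 windows at other genes. Within 50 bp the shares were 24.0% and 31.2%, and within 200 bp 68.0% and 76.5%, so the order turned with the window. The windows of eif-3.B, eif-3.C, eif-3.D and eif-3.E held an E-box, and that of eif-3.I held none. Of the 10 E-box forms counted, CAAATG and CAAGTG were the most frequent in these windows. The form CAAATG was in 6 windows (24%), those of eif-3.B, eif-3.C, eif-3.E, eif-3.G, eif-2alpha and ife-3, against 15.8% elsewhere. The form CAAGTG was in 5 (20%), those of eif-3.C, eif-3.D, eif-3.J, eef-2 and ife-3, against 9.06%. Below their share elsewhere were CAACTG (4% against 9.84%), CAGATG (4% against 7.76%), CACGTG (0% against 3.43%) and CATATG (0% against 2.79%). So were CACCTG (4% against 5.09%) and CAATTG (8% against 8.31%). CACATG (8% against 6.40%) and CAGCTG (4% against 3.98%) lay slightly above. CGCACA was in 3, those of eef-1A.2, eif-2Bdelta and eif-2alpha, against 6.93% of other windows, and CCGCAC, which shares letters with CGCACA, was in none, against 5.09%. Both came from an earlier search over these data, so these shares are description only. The tRNA promoter run GGTTCGA was in none, against 2.42%. The median GC content was 34.3% in the 25 windows and 37.3% in the others. A match is a description of letters, not a binding site.

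Other lists of translation genes held single strong peaks. Of 9 further factor genes with other names, 7 had a pooled peak and none an IDR peak, the highest being ifet-1, for a protein that binds eIF4E and represses messages, with 55.4 at rank 468. Of 7 genes of termination, recycling and rescue 5 had a pooled peak, and erfa-3, for release factor eRF3, had an IDR peak with 104 at rank 103, 314 bp upstream. It ranked 96 in replicate 1 and 245 in replicate 2, beside the strongest eIF3 genes. Of 5 mitochondrial translation factor genes 4 had a pooled peak, and gfm-1, for a mitochondrial elongation factor G, had an IDR peak with 66.3 at rank 309. Of 10 regulators of translation factors 5 had a pooled peak, and the IDR peak among them, at rict-1 of the TORC2 kinase complex, is that same gfm-1 peak. The strongest ribosomal protein gene was rpl-3 with 119 at rank 79, 274 bp upstream, followed by rps-24 with 105 at rank 101 and rps-19 with 86.2 at rank 171. The strongest synthetase gene was ears-2 with 281 at rank 5, only 27 bp upstream.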

How the data were processed

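Peak lists were deposited for 2 replicate libraries, for both pooled, and for the IDR step, on ce10 and ce11. The ce11 lists were used and the ce10 lists were not. According to notes beside the deposited files, the authors called peaks from each library with a control, which was not analysed here. Which aligner and peak caller they ran is not stated in those notes or in the labels. The signal of each peak is the value deposited by the authors, on a scale they do not state. Read depth is unknown.

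Genes and transcript starts came from Ensembl release 115 and sequence from NCBI RefSeq, both of WBcel235. A gene took the highest-signal peak whose summit lay within 1 kb of any of its starts. Motifs were sought on both strands within 100 bp of the summit. Named genes were all with an IDR peak, the 25 of highest pooled signal, those with no peak in any list, and up to 3 of each further list. The members and lists were chosen with earlier results of these data known, and the 200 bp and 500 bp distances after values were seen. Alternatives were distances of 500 bp and 2 kb, the nearest start, the outermost start, peaks away from tRNA and snoRNA genes, other rank limits, other windows and each replicate alone. The scripts, in Python 3.11.15 with numpy 2.4.6, scipy 1.17.1 and matplotlib 3.10.9, were tested on simulated data with planted peaks.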

Additional observations from a re-analysis of the deposited data

How the results depend on the processing

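The count of 25 factor genes with a pooled peak was 22 at 500 bp, 29 at 2 kb and 18 where a peak went to the nearest start alone. With one replicate list in place of the pooled list it was 26 to 27. The 5 genes with an IDR peak were 4 at 500 bp and 4 with the outermost start, each losing eif-3.I, and 4 with the nearest start, losing eif-3.D. Among the stronger part of the IDR list, above its median signal, 2 remained, eif-3.C and eif-3.D. The 21 genes with a peak in both replicates were 12 when each list was held to its 5000 highest peaks. The median rank of 20.8% became 15.7% at 2 kb and 11.1% with the nearest start. E-boxes lay in 14 windows at 100 bp and in 6 at 50 bp, CGCACA in 3 at 100 bp and 0 at 50 bp, and CCGCAC in 0 at 100 bp and 1 at 200 bp. Of the best peaks of the 25 named genes, 12 counted as moved in rank with either replicate list alone. Under the other distances and starts 0 to 4 did. For genes with a peak in both replicates, a move is a shift beyond the spread between replicates. The genes eif-1, eif-2Balpha, eif-2alpha, eif-3.H and eif-3.J are among those moved. Each has a peak in 1 replicate list only, so no such spread exists for them. Besides the genes counted as moved, 7 lost their peak with the nearest start, 3 at 500 bp, and 4 and 1 with the lists of replicate 2 and replicate 1. The cause of these shifts was not tested. No paired analysis was possible because the labels give 1 group and no second group to pair with. Depth is unknown, so a missing peak is not evidence of no binding.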

Other observations

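A gene of the same strand ends within 500 bp in front of 8 of the factor genes, a distance chosen after values were seen. These are eef-1B.2, eif-2Bgamma, eif-2alpha, eif-2gamma, eif-3.C, eif-3.F, ife-1 and ife-5. A pooled peak lay at 4 of the 8, against 21 of the 29 others (72.4%). An IDR peak lay at 1 of 8 (12.5%), against 4 of 29 (13.8%), and one of the 2000 highest pooled peaks at 2 of 8, against 8 of 29 (27.6%). With 1 or 2 such calls among 8 genes, these shares cannot show whether a gap is present. Over all protein-coding genes the shares with a pooled peak were 34.3% with such a gene in front and 36.1% without. For an IDR peak they were 1.27% and 1.92%, and for one of the 2000 highest pooled peaks 5.48% and 7.24%.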
